A study of Mus musculus with 8 samples.

Results

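Small cell lung cancer cells of the mouse line N2N1G that carried transcripts of both Tfap2a and Cldn7 were examined here as one class of tumour cell. The class was defined from the counts themselves. A cell belonged to it when it passed quality limits (500 or more genes, no more than 10% mitochondrial transcripts), when the reporter eGFP and the oncogene Mycl together made up at least 0.2% of its unique molecular identifiers (UMIs, 1 for each captured transcript), when the genes En1, Des, Hoxd9, Hoxd10 and Hoxd11 together had fewer than 2 UMIs, and when Tfap2a and Cldn7 had at least 1 UMI each. This rule found 1768 cells among 34719 tumour cells and 38460 deposited cells. The 32951 other tumour cells of the same libraries served as the comparison.

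All groups were allografts of the same cultured line, grown in mice from the same number of transplanted cells and harvested after 3 weeks. Brain tumours (2 libraries) and subcutaneous tumours of the flank (3 libraries) were started by direct injection, and liver tumours (3 libraries) through the tail vein, so in the comparisons with liver the route and the site cannot be told apart. Living single cells were sorted and profiled by droplet-based sequencing of messenger RNA 3′ ends. The labels number the allografts of a site without saying whether each came from a different mouse, so p-values measure the spread between these libraries, and all results describe 1 cell line. The number of Tfap2a Cldn7 cells was 85 and 216 in the brain libraries, 260, 277 and 217 in liver, and 425, 137 and 151 in subcutaneous tumours.

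Small cell lung cancer is a neuroendocrine carcinoma, a tumour with secretory granules and neuronal gene expression, in which transcription factors such as Insm1 and Nkx2-1 set the identity of the cells. Tfap2a encodes the transcription factor AP-2alpha, which is known from ectoderm, neural crest and epithelial development, and Cldn7 encodes claudin 7, a membrane protein of tight junctions, the seals between epithelial cells. The series was deposited under a title on neuronal mimicry and growth in the brain.

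The share of the class among tumour cells differed more between libraries than between sites. With all UMIs of each cell it was 3.52% and 5.32% in the brain libraries, 6.32%, 6.61% and 4.60% in liver and 10.2%, 2.18% and 3.15% in subcutaneous tumours. Subcutaneous replicate 1 was the highest and subcutaneous replicate 2 the lowest of all 8 libraries, and the brain and liver values lay between them. A rule of 1 UMI depends on depth, so each tumour cell was also thinned to 3000 randomly drawn UMIs. This dropped 48 to 180 cells of lower depth from each library. The thinned share was 0.884% (exact 95% binomial interval 0.541 to 1.36) and 1.05% (0.755 to 1.41) in brain, 0.913% (0.644 to 1.26), 1.35% (1.02 to 1.75) and 0.727% (0.501 to 1.02) in liver, and 1.91% (1.51 to 2.38), 0.492% (0.332 to 0.701) and 0.741% (0.517 to 1.03) in subcutaneous tumours. These intervals cover counting error only. Over 560 assignments of libraries to sites, the F statistic of the 3 groups had an exact permutation p = 0.989 for the thinned share and p = 0.904 for the unthinned share, where 0.00357 is the smallest p the test can give. Mean thinned shares were 0.966 ± 0.115% in brain (SD, n = 2), 0.997 ± 0.320% in liver (SD, n = 3) and 1.05 ± 0.756% in subcutaneous tumours (SD, n = 3). The thinned share of no pair of sites differed beyond the spread between libraries (two-sided exact permutation p from 0.9 to 1, smallest possible 0.1).

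**Figure D1:**
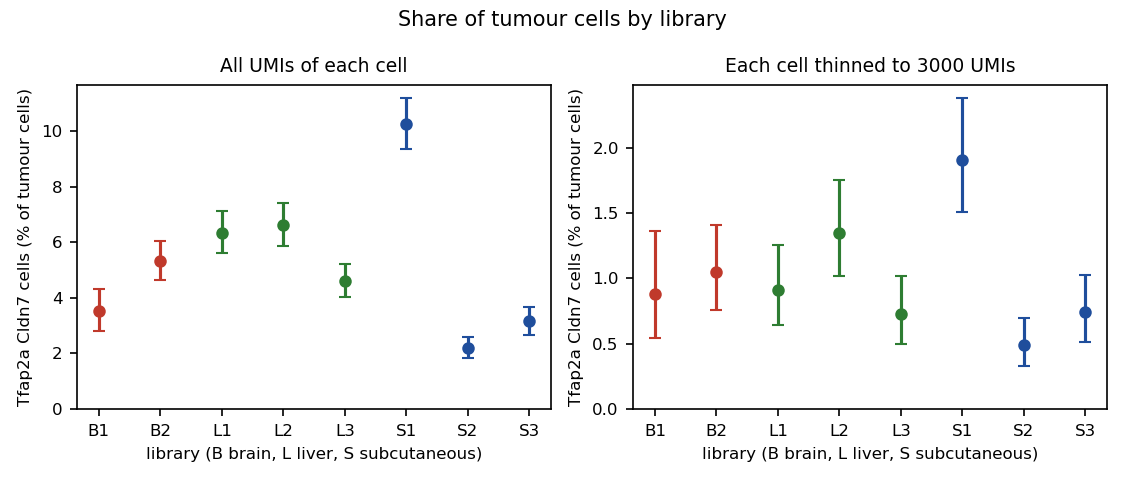
Share of Tfap2a Cldn7 cells among tumour cells in each library (percent, y axis) with exact 95% binomial intervals, from all UMIs (left) and after thinning each cell to 3000 UMIs (right). Subcutaneous replicate 1 stands highest in both panels, at 10.2% and 1.91%, and the ranges of the 3 sites overlap.

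Cells of the class held more UMIs than the rest. Their median depth was 10005 to 15315 UMIs per library against 7824 to 10379 in the other tumour cells, a ratio with a mean of 1.27 (SD 0.160, n = 8) that was above 1 in 8 of 8 libraries. A rule of 1 UMI favours deeper cells, and its part in this difference was not tested. Tfap2a and Cldn7 UMIs occurred in the same tumour cells 1.47 times (subcutaneous replicate 1) to 7.26 times (subcutaneous replicate 2) as often as their separate frequencies would give. This ratio was read from all UMIs of cells of unequal depth, and no other pair of genes was set beside it. It is a description of the 2 genes that the rule reads. In subcutaneous replicate 1, where this ratio was lowest, Tfap2a had a UMI in 38.8% of all tumour cells, against 7.95% to 21.6% in the other 7 libraries. As a measure of free RNA, macrophage-like cells of the brain libraries were read. They had at least 5 UMIs over 5 macrophage genes and less than 0.2% of their UMIs from eGFP and Mycl. Among 822 and 257 such cells, with median depths of 4253 and 3908 UMIs, 0 cells had both genes, and Tfap2a had a UMI in 0.487% and 0% and Cldn7 in 0.122% and 0% of them. The limit on eGFP and Mycl leaves out cells with much free tumour RNA, so these shares can be too low. No doublet caller was applied. Any pair of libraries shared 20 to 56 cell barcodes, at most 1.16% of the smaller library, and 1 barcode was shared among cells of the class.

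Library facts that touch the comparison were as follows. Deposited libraries held 27140735 to 63049542 UMIs, and the summed UMIs of the class were 1159409 (brain replicate 1) to 5746955 (subcutaneous replicate 1), so brain replicate 1 gives the least precise levels. Cells with 2 or more UMIs of the En1 gene set, which the rule keeps out of the class, made up 26.2% and 32.1% of tumour cells in brain, 1.23% to 2.38% in liver and 9.54%, 2.10% and 2.21% in subcutaneous tumours, and they belong to the comparison cells. Comparisons were therefore repeated against the other tumour cells with fewer than 2 of these UMIs, called En1-low below.

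The genes of the rule and the 3 further genes proposed as markers of the class were all higher in it. UMIs were summed over the cells of each class in each library and divided by the library total (levels are given as CPM). Tfap2a (ENSMUSG00000021359, chromosome 13, 40715302 to 40738376) stood at 139.7 and 120.3 in brain, 99.5, 111 and 123 in liver and 135, 149 and 138 CPM in subcutaneous tumours, and Cldn7 (ENSMUSG00000018569, chromosome 11, 69964779 to 69967885) at 179 and 171 in brain, 122, 164 and 210.5 in liver and 171, 187 and 179 CPM in subcutaneous tumours. The other tumour cells had 7.17 to 65.4 CPM of Tfap2a and 3.01 to 18.97 CPM of Cldn7. Both levels follow from the rule and are given as its description. The limits on Tfap2a and Cldn7 were also read in one random portion (1 of 2 equal draws) of each cell's UMIs and the level in the remaining portion. The other limits were still read from all UMIs, and 788 cells passed. The remaining 33931 tumour cells include the cells of the class that did not pass. The ratio of the 788 cells to these had a median of 8.50 over the libraries for Cldn7 (3.76 to 27.0) and of 4.75 for Tfap2a (1.39 to 7.72).

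Il17b (ENSMUSG00000024578, chromosome 18, 61684887 to 61692538), a cytokine of the interleukin 17 family, stood at 197 and 155 in brain, 115, 131 and 134 in liver and 104, 65.97 and 74.7 CPM in subcutaneous tumours. Its level in the other cells was 38.1 and 48.1 in brain, 42.9, 35.2 and 34.9 in liver and 58.9, 14.9 and 16.8 CPM in subcutaneous tumours, so the classes did not overlap, and the log2 fold change between them was 1.69 (SE 0.20). Wfdc2 (ENSMUSG00000017723, chromosome 2, 164562413 to 164568510), a secreted protein of airway and reproductive tract epithelium, stood at 577 and 647 in brain, 464, 511 and 575 in liver and 774, 739.5 and 879 CPM in subcutaneous tumours. Wfdc2 in the other tumour cells stood at 192 and 233 in brain, 209, 179 and 227 in liver and 422, 190.5 and 227 CPM in subcutaneous tumours. The fold change in log2 was 1.44 (SE 0.15), and again no library of one class reached the other. Espn (ENSMUSG00000028943, chromosome 4, 152120331 to 152152371), which bundles actin in microvilli and hair cell stereocilia, had 93.2 and 95.4 in brain, 127, 119 and 129 in liver and 199.8, 184 and 164 CPM in subcutaneous tumours. Espn in the other tumour cells stood at 38.8 and 36.5 in brain, 80.7, 70.2 and 74.97 in liver and 93.6, 111 and 95.7 CPM in subcutaneous tumours, with a log2 fold change of 0.95 (SE 0.05). Within each library Espn was higher in the class, while across libraries the brain values of the class overlapped the subcutaneous values of the other cells. Cells with UMIs of all 3 of Il17b, Espn and Wfdc2 made up 27.7% to 60.4% of the class per library and 3.37% to 13.5% of the other tumour cells, and cells with none of them 0% to 2.35% and 16.01% to 32.4%. The cells were chosen on this contrast, so these and the following differences between the class and the other tumour cells are descriptions with no test.

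Across 10844 genes with enough UMIs, outside the genes of the rule, 255 were at least 1.5-fold higher in the class and higher within all 8 libraries (2.35%), and 641 were at least 1.5-fold lower and lower within all 8 (5.91%). In 348 genes (3.21%) the 8 sums of the class did not overlap the 8 sums of the other cells. The sum of both directions was 896 genes, 825 against En1-low cells and 791 against cells matched to the class on UMI count. The median log2 difference of all genes was -0.0021. The rule used this contrast, and the shares are given as background for the gene groups below.

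The genes with the largest excess in the class included neural and secreted factors beside surface proteins. Ceacam10, a secreted member of the carcinoembryonic antigen family, stood at 49.2 and 49.8 in brain, 26.1, 37.8 and 44.7 in liver and 28.01, 22.2 and 23.5 CPM in subcutaneous tumours. Among the other tumour cells it had 5.16 and 9.18 in brain, 5.06, 4.92 and 5.97 in liver and 10.5, 1.32 and 2.08 CPM in subcutaneous tumours, and the log2 fold change was 2.57 (SE 0.33). Nkx2-2, a homeobox factor of ventral neural tube and endocrine progenitors, had 52.6 and 46.7 in brain, 36.8, 42.4 and 45.8 in liver and 58.3, 49.8 and 64.03 CPM in subcutaneous tumours. Nkx2-2 in the other tumour cells stood at 10.6 and 15.5 in brain, 6.21, 4.48 and 6.06 in liver and 31.04, 4.12 and 5.54 CPM in subcutaneous tumours. The fold change in log2 was 2.30 (SE 0.42), and subcutaneous replicate 1 was the library in which the other cells came closest to the class. Vwf, the von Willebrand factor best known from endothelium, had 71.6 and 60.3 in brain, 62.7, 70.98 and 64.8 in liver and 67.9, 48.6 and 54.4 CPM in subcutaneous tumours. Vwf in the other tumour cells stood at 13.5 and 14.3 in brain, 16.8, 15.8 and 12.6 in liver and 27.3, 6.03 and 7.18 CPM in subcutaneous tumours, a log2 fold change of 2.12 (SE 0.24). The endothelial gene Cdh5 had 0 UMIs in the class, and the 10 endothelial markers together stood at 7.76 to 14.99 CPM in the class and 10.4 to 47.8 CPM in the other cells. Id4, an inhibitor of basic helix-loop-helix factors, had 454 and 475 in brain, 304, 357 and 329.7 in liver and 399, 404 and 371 CPM in subcutaneous tumours. Id4 in the other tumour cells stood at 124 and 145 in brain, 111, 126 and 107 in liver and 156, 97.9 and 99.9 CPM in subcutaneous tumours, with a log2 fold change of 1.64 (SE 0.075).

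The remaining genes named in this direction had log2 fold changes of 2.18 (Hs3st6, a heparan sulfate sulfotransferase), 1.99 (Tead2, a DNA-binding partner of the Yap coactivator), 1.83 (Bcl11a, a zinc finger repressor), 1.82 (Msrb1, a methionine sulfoxide reductase), 1.70 (Gpld1, a phospholipase that cuts lipid anchors), 1.68 (Dnase2a, the lysosomal DNase), 1.59 (Nefl, the neurofilament light chain), 1.56 (Col18a1, a basement membrane collagen) and 1.49 (Ifitm3, an interferon-induced membrane protein). Each was higher in the class in 8 of 8 libraries, which the naming rule required. Classes overlapped across libraries for Bcl11a, Gpld1 and Col18a1, and the other tumour cells of subcutaneous replicate 1 had the highest values of their class, at 25.2, 34.8 and 21.7 CPM, against at most 13.2, 18.5 and 7.98 CPM in the other 7 libraries.

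**Figure D2:**
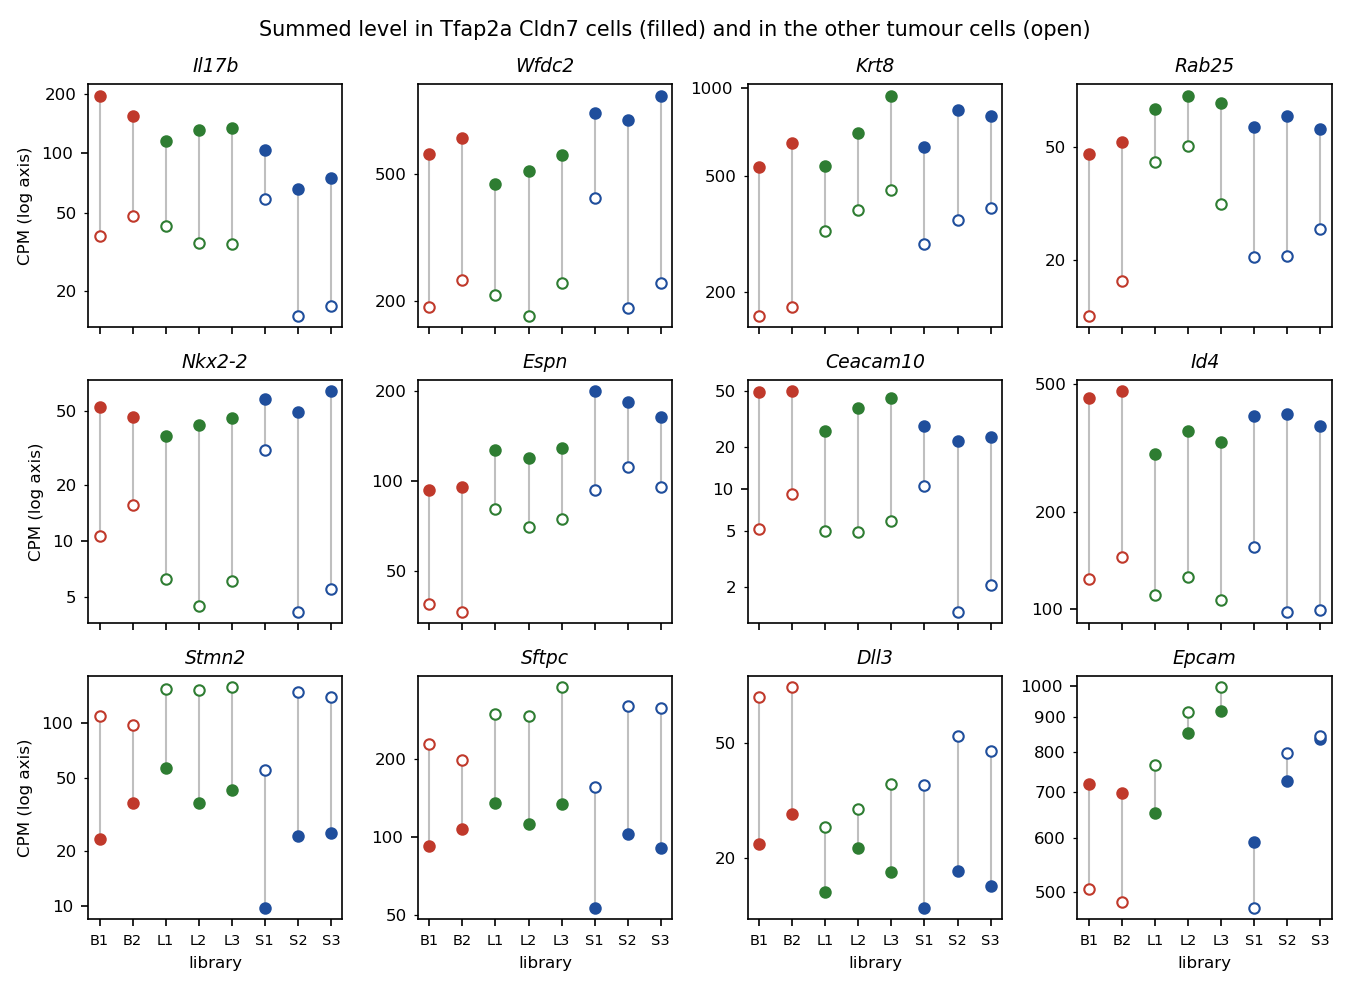
Level of 12 genes in each library (CPM, log axis) in Tfap2a Cldn7 cells (filled) and in the other tumour cells (open), joined by a line within a library, for brain (B, red), liver (L, green) and subcutaneous (S, blue) tumours. Il17b, Wfdc2, Krt8, Espn, Nkx2-2, Ceacam10 and Id4 are higher in the class in 8 of 8 libraries, Stmn2, Sftpc and Dll3 are lower in 8 of 8, and Epcam is higher in 3 of 8.

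Promoters were read because AP-2alpha, whose transcript defines the class, binds a palindrome, and because these genes were high together. The motif searched was GCCNNNGGC, which reads the same on both strands, in 300 bases from 250 before to 50 after the gene start (RefSeq, assembly GRCm38.p6). It occurred in 16.5% of 27025 promoters and in 26.2% of the 8544 promoters found for the 10844 genes tested. Among genes higher in the class 192 of 255 had a promoter in the table and 27.6% of those held the motif, and among lower genes 446 of 641 had one and 29.6% held it, both near the share of all genes tested. Of the 14 genes named as higher, 10 had a promoter and 1 held the motif, Tead2. The promoter of Cldn7 (chr11:69964529-69964828, plus strand) had no match, which says only that these letters are not in this window. The promoters of Wfdc2 (chr2:164562465-164562764, plus strand) and Tead2 (chr7:45215542-45215841, plus strand) held 1 match each, starting 39 and 13 bases after the RefSeq gene start. The GENCODE start of Wfdc2 given above lies before this window, so by that annotation the whole window is inside the gene. The 3 promoters are shown 5′ to 3′, with the match in capitals, as the rule's junction gene and the marker and named gene with a match.
Cldn7: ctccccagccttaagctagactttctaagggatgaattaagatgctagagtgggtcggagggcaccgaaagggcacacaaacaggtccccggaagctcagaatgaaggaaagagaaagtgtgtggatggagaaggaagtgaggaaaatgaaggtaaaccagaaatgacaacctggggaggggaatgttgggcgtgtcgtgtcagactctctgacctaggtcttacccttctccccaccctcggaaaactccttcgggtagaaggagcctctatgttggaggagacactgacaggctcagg
Wfdc2: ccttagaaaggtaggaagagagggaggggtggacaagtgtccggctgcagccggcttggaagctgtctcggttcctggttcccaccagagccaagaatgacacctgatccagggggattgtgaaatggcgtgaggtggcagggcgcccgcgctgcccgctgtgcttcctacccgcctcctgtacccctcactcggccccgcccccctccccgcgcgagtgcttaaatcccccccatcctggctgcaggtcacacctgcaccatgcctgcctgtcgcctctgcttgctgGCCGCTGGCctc
Tead2: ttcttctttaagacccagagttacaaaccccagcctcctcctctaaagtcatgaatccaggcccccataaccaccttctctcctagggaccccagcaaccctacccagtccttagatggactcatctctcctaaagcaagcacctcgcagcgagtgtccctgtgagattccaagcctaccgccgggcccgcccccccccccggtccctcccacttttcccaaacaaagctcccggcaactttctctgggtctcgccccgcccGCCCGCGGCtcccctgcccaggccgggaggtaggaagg
A match is a description of the sequence, and binding was not measured here.

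Of the epithelial gene groups, the 3 keratins with enough UMIs were all higher in the class, and most junction genes differed less. Krt8 (ENSMUSG00000049382, chromosome 15, 101996698 to 102004482), the type II keratin of simple epithelia, stood at 536 and 647 in brain, 539.7, 698 and 939 in liver and 628, 837 and 799 CPM in subcutaneous tumours. In the other tumour cells it stood at 165 and 179 in brain, 324, 383 and 447 in liver and 293, 353 and 389 CPM in subcutaneous tumours, without overlap, and the log2 fold change was 1.23 (SE 0.034). Krt7 and Krt18, the partner of Krt8 in filaments, had log2 fold changes of 0.76 (SE 0.03) and 0.70 (SE 0.038). The class had 612 ± 82.4 CPM (SD, n = 8) of Krt7 and 231 ± 32.2 CPM (SD, n = 8) of Krt18, against 353 ± 39.2 CPM (SD, n = 8) and 141 ± 15.2 CPM (SD, n = 8) in the other cells. The remaining 8 keratins of the list of 11, among them the basal keratins Krt5 and Krt14, had too few UMIs to be compared.

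Of 18 tight junction genes tested, 3 were higher (Cldn3 0.84 (SE 0.042), Crb3 0.90 (SE 0.086), Marveld3 0.91 (SE 0.13), as log2 fold changes) and 1 was lower (Cldn11, -1.11 (SE 0.31), at 0 to 2.13 CPM in the class), with a median of 0.060 over the list. Cldn3, a claudin of epithelia like Cldn7, had 147 and 142 in brain, 93.2, 126 and 175 in liver and 136, 145 and 161 CPM in subcutaneous tumours. Cldn3 in the other tumour cells stood at 74.96 and 77.9 in brain, 57.96, 70.98 and 88.8 in liver and 81.1, 72.95 and 81.1 CPM in subcutaneous tumours, without overlap. Of 15 genes of adherens junctions and desmosomes, 3 were higher and 0 lower (median 0.11): the epithelial cadherin Cdh1 (0.81 (SE 0.078)) and the desmosomal plakophilins Pkp2 (0.62 (SE 0.11)) and Pkp3 (0.71 (SE 0.11)). Cdh1 had 33.6 and 25.96 in brain, 37.01, 35.95 and 32.2 in liver and 26.4, 25.8 and 32.02 CPM in subcutaneous tumours. Cdh1 in the other tumour cells stood at 10.2 and 9.51 in brain, 28.8, 31.6 and 25.8 in liver and 13.8, 19.2 and 21.4 CPM in subcutaneous tumours. Cdh1 differed most in brain, where the other cells were lowest. Epcam, the epithelial adhesion molecule, did not separate the classes: it stood at 718 and 696 in brain, 651, 851 and 917 in liver and 591, 725 and 837 CPM in subcutaneous tumours. Epcam in the other tumour cells stood at 504 and 483 in brain, 766, 914 and 995 in liver and 473, 796 and 843 CPM in subcutaneous tumours, a log2 fold change of 0.11 (SE 0.053) that was positive in 3 of 8 libraries. Both classes of tumour cell thus carried Epcam transcripts, and the label epithelial-like holds for keratins and some junction genes, not for Epcam.

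Among 19 regulators of epithelial identity tested, 4 were higher and 0 lower (median 0.52). Rab25, a small GTPase of epithelial recycling endosomes, had 47.4 and 52.3 in brain, 68.01, 75.8 and 71.2 in liver and 58.99, 64.2 and 57.6 CPM in subcutaneous tumours. Rab25 in the other tumour cells stood at 12.7 and 16.9 in brain, 44.2, 50.3 and 31.7 in liver and 20.6, 20.8 and 25.8 CPM in subcutaneous tumours, with a log2 fold change of 1.27 (SE 0.078). The transcription factors Grhl1 (1.01 (SE 0.17)) and Foxa2 (0.77 (SE 0.08)) were among the other 3. Elf3, an epithelium-specific Ets factor, had a log2 fold change of 1.05 (SE 0.10) but was higher in only 7 of 8 libraries. Grhl2, a regulator of Cdh1 and claudins, had 0.23 (SE 0.11) and was higher in 5. Of 13 microvillus and actin bundle genes tested, Espn and Vil1 (villin, 0.91 (SE 0.19), at 2.51 to 6.04 CPM in the class) were higher and 0 were lower, with a median of 0.32.

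Transcripts of other airway and tuft cells did not accompany the class. Of 16 airway secretory genes 3 had enough UMIs, of which Wfdc2 was higher in all 8 libraries and the other 2 were not. Of 8 airway basal genes 0 had enough UMIs. Of 17 tuft cell genes 5 were tested, 0 were higher and 2 were lower: Sox9 (-1.41 (SE 0.12)) and Dclk1 (-1.59 (SE 0.22)). Pou2f3, the regulator of tuft cells and of the tuft-like subtype of this cancer, had 7 UMIs in all cells of the class together. Among receptors of the interleukin 17 family, Il17rb had 0 UMIs in the class. Il17ra stood at 6.31 to 12.6 CPM in the class and 5.81 to 9.59 CPM in the other cells, and Il17rc at 0 to 1.05 CPM and 1.13 to 4.57 CPM. Of the 5 AP-2 family genes, Tfap2c had a log2 fold change of -0.36 (SE 0.13) and was lower in 5 of 8 libraries, and Tfap2b had 0 UMIs in the class. Tfap2e counted as lower in all 8 libraries, with 1 UMI in the class, in liver replicate 1, and 8.67 and 9.73 CPM in the other cells of brain and 0.207 to 2.25 CPM in those of the 6 other libraries. No fold is given for Tfap2e, since 7 libraries of the class were at 0.

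Genes of neuroendocrine granules and of the neuronal cytoskeleton were more often lower than higher in the class. Of 23 granule genes tested 0 were higher and 7 lower (Resp18, Pcsk1n, Ptprn, Grp, Vgf, Cadps and Calca), with a median of -0.30. Resp18, a granule protein, had 5.18 and 5.26 in brain, 4.63, 3.46 and 1.79 in liver and 2.26, 3.60 and 1.07 CPM in subcutaneous tumours. Resp18 in the other tumour cells stood at 47.2 and 56.7 in brain, 10.7, 12.03 and 10.9 in liver and 19.2, 15.1 and 12.1 CPM in subcutaneous tumours, a log2 fold change of -2.69 (SE 0.13) that was -1.89 against En1-low cells. Pcsk1n, the precursor of an inhibitor of prohormone convertase, had 47.4 and 24.2 in brain, 20.1, 19.1 and 16.1 in liver and 4.52, 9.60 and 7.47 CPM in subcutaneous tumours. Pcsk1n in the other tumour cells stood at 111 and 112 in brain, 47.04, 44.1 and 53.2 in liver and 42.9, 43.5 and 45.6 CPM in subcutaneous tumours, a log2 fold change of -2.03 (SE 0.11). The general markers differed less: chromogranin A (Chga) had -0.30 (SE 0.045), lower in 8 of 8 libraries, and Snap25, of the vesicle fusion machinery, had 0.26 (SE 0.034), higher in 8 of 8.

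Of 20 genes of the neuronal cytoskeleton and adhesion, 2 were higher (the neurofilaments Nefl 1.59 (SE 0.28) and Nefm 1.61 (SE 0.33)) and 5 lower, with a median of -0.094. Stmn2, a microtubule regulator of growing axons, had 23.3 and 36.5 in brain, 56.7, 36.4 and 42.95 in liver and 9.74, 23.99 and 25.1 CPM in subcutaneous tumours. Stmn2 in the other tumour cells stood at 109 and 97.4 in brain, 154, 152 and 157 in liver and 55.6, 148 and 139.6 CPM in subcutaneous tumours. Within each library it was lower in the class, with a log2 fold change of -2.02 (SE 0.081), and the values overlapped across libraries, the lowest other-cell value being that of subcutaneous replicate 1. Its relative Stmn4 had -2.26 (SE 0.085), the migration gene Dcx -1.54 (SE 0.15), Dpysl3 -0.998 (SE 0.065) and Dpysl5 -0.71 (SE 0.083). Thus neurofilament and stathmin genes, both neuronal, differed in opposite directions. Tubb3, the neuronal tubulin, had -0.24 (SE 0.061) and Gap43, a growth cone protein, -0.041 (SE 0.043).

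The lineage factors split as well. Of 21 neuroendocrine and neuronal regulators tested, 1 was higher (St18, 1.36 (SE 0.14)) and 5 lower (Neurod1, Neurod4, Myt1l, Nkx2-1 and Onecut1), with a median of -0.12. Nkx2-1, the lung lineage factor, had 136 and 129 in brain, 123, 113 and 136 in liver and 113, 158 and 137 CPM in subcutaneous tumours. Nkx2-1 in the other tumour cells stood at 225 and 228 in brain, 163, 149.8 and 185 in liver and 168, 231 and 215 CPM in subcutaneous tumours, with a log2 fold change of -0.64 (SE 0.034). Neurod1 was low in both, at 0 to 3.60 CPM in the class and 0.862 to 6.34 CPM in the other cells. Insm1, a zinc finger factor of neuroendocrine cells, had 0.16 (SE 0.032) and Sox2 0.48 (SE 0.14).

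Of 14 Notch pathway genes tested, 2 were higher and 3 lower. Among the ligands, Dll1 had 0.68 (SE 0.11) and Dll3, an inhibitory ligand that is a surface target in this cancer, -1.28 (SE 0.069). Dll3 had 22.4 and 28.4 in brain, 15.3, 21.7 and 17.9 in liver and 13.4, 17.99 and 16.01 CPM in subcutaneous tumours. Dll3 in the other tumour cells stood at 72.4 and 78.4 in brain, 25.6, 29.6 and 36.1 in liver and 35.7, 53.1 and 47.2 CPM in subcutaneous tumours. Lfng, a glycosyltransferase that modifies Notch receptors, had 0.62 (SE 0.046), and the target genes Hey1 and Hes5 had -0.93 (SE 0.18) and -0.86 (SE 0.17), while Hes6 had 0.10 (SE 0.027). Some genes that mark other states of this line were lower. Sftpc, the surfactant protein C gene of alveolar cells, had 92.3 and 107 in brain, 135, 112 and 135 in liver and 53.1, 103 and 90.7 CPM in subcutaneous tumours. Sftpc in the other tumour cells stood at 229.6 and 198 in brain, 299.7, 294 and 380.0 in liver and 156, 323 and 315 CPM in subcutaneous tumours, with a log2 fold change of -1.39 (SE 0.046). Sfrp5, a secreted Wnt antagonist, had -1.11 (SE 0.06), and the serotonin receptor gene Htr3a -0.91 (SE 0.057), while Isl1, which marks the same state as Htr3a, had -0.32 (SE 0.11) and was lower in 6 of 8 libraries. Of another pair of markers, Galnt14 was lower (-1.36 (SE 0.074)) and Rem2 had -0.11 (SE 0.063), lower in 5 of 8.

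Among the genes with the largest deficit, Tm4sf1, a tetraspanin-like surface protein, had the largest log2 fold change, -4.01 (SE 0.23), which was -1.62 against En1-low cells and ranged from -5.72 (without subcutaneous replicate 1) to -3.73 (without liver replicate 1) with 1 library left out. Its UMI counts in the class were 1 and 11 in brain, 0, 0 and 2 in liver and 9, 0 and 0 in subcutaneous tumours. Among the other tumour cells it had 51.1 and 78.5 in brain, 2.13, 1.45 and 1.77 in liver and 24.001, 4.50 and 2.38 CPM in subcutaneous tumours. The further genes named as lower were Zcchc12 (-2.44), Tmem171 (-2.43), the glypican Gpc3 (-2.27), Camk2n1, an inhibitor of calcium/calmodulin-dependent kinase II (-2.17), the elongation factor isoform Eef1a2 (-2.14), the neurotensin receptor Ntsr2 (-2.08), Vat1 (-2.03), the junctional adhesion molecule Jam3 (-2.03) and Pcbd1 (-1.94). Each of these was lower in 8 of 8 libraries, and the classes overlapped across libraries for Zcchc12 and Camk2n1 of these 9.

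Cells just outside and just inside the rule showed the same genes at graded levels. Among tumour cells with few UMIs of the En1 gene set, 25146 had neither gene, 3470 had Tfap2a only, 1533 had Cldn7 only, 414 cells of the class had exactly 1 UMI of each gene and 461 had 2 or more of each. Over the 8 libraries, Nkx2-2 stood at 4.39 ± 4.83, 33.4 ± 12.2, 34.8 ± 10.2, 46.5 ± 19.03 and 53.6 ± 6.98 CPM (mean ± SD, n = 8) in these 5 groups in that order. Ceacam10 stood at 2.78 ± 1.51, 12.8 ± 3.70, 28.3 ± 11.04, 35.6 ± 15.97 and 37.01 ± 12.1 CPM, and Il17b at 25.5 ± 10.4, 94.04 ± 14.5, 91.3 ± 24.9, 116 ± 47.6 and 127 ± 53.1 CPM. Cells with 1 of the genes already had higher mean levels of Nkx2-2 and Il17b than cells with neither. Krt8 and Espn instead went with Cldn7. Krt8 stood at 306 ± 85.8, 377 ± 102, 677 ± 110.3, 681 ± 179 and 695 ± 141 CPM and Espn at 78.3 ± 25.1, 59.99 ± 20.1, 156 ± 47.4, 141 ± 59.2 and 139 ± 36.6 CPM over the same 5 groups, so that cells with Tfap2a only had means close to those of cells with neither gene. Stmn2 had 156 ± 23.3, 81.4 ± 46.4, 63.6 ± 19.6, 38.1 ± 18.4 and 20.02 ± 15.3 CPM over the 5 groups, and Sftpc 334 ± 43.3, 155 ± 47.7, 155 ± 37.5, 121 ± 44.1 and 76.6 ± 28.6 CPM. These groups differ in depth as well as in the UMIs that define them, and the part of depth in these differences was not tested.

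**Figure D3:**
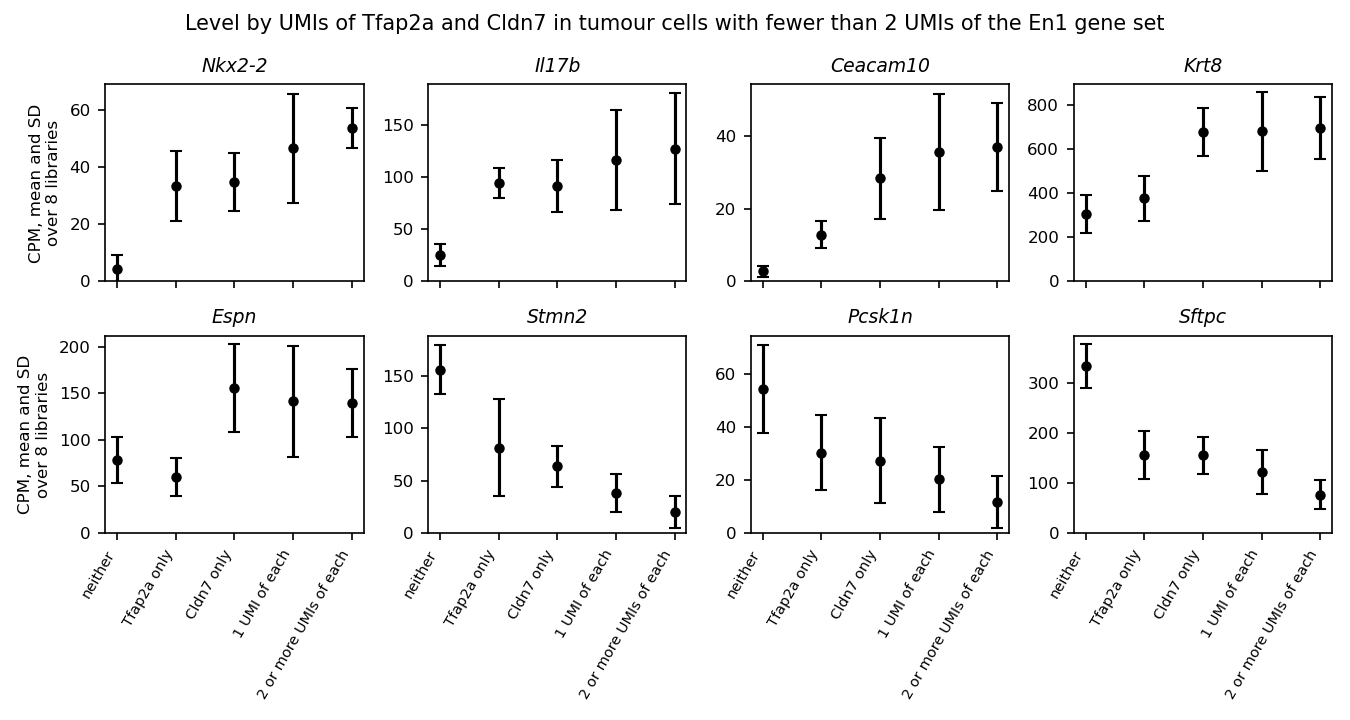
Level of 8 genes (CPM, mean and SD over 8 libraries, y axes from 0) in tumour cells grouped by their UMIs of Tfap2a and Cldn7 (x axis). Nkx2-2 and Il17b are higher in the groups with either gene, Krt8 and Espn in the groups with Cldn7, and Stmn2, Pcsk1n and Sftpc are lower in all groups than in cells with neither gene.

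The share of cells with G2/M transcripts was slightly higher in the class than in the other tumour cells in 7 of 8 libraries, the exception being liver replicate 3. After thinning to 3000 UMIs, 40.5% and 38.0% of the class in brain, 39.2%, 44.8% and 37.3% in liver and 39.3%, 42.3% and 41.1% in subcutaneous tumours had at least 4 UMIs over 20 genes of the G2/M phases. The other tumour cells had 34.1% and 34.1%, 38.2%, 39.3% and 39.2%, and 34.2%, 31.9% and 35.6%. The class was higher by 4.46 percentage points on average (SD 3.66, n = 8, from -1.88 to 10.4), with no test. The class was chosen on all UMIs, which favours deeper cells, and thinning the G2/M count does not undo that choice. Its part in this difference was not tested. Of the 20 G2/M genes 0 were at least 1.5-fold higher in the class in all 8 libraries, against 2.35% of all genes, and their median log2 fold change was 0.071. Without thinning the shares were 51.1% to 67.1% in the class and 47.0% to 58.8% in the other cells. Between sites the thinned share of the class did not differ beyond the spread (exact permutation p = 0.811 over 560 assignments).

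Transcripts of host cells in the class varied between libraries. The 16 macrophage and microglia markers together stood at 43.1 to 323 CPM in the brain libraries, 2.54 to 6.91 CPM in liver and 2.13 to 106 CPM in subcutaneous tumours, and in the other tumour cells at 83.6 to 525, 6.27 to 16.2 and 2.15 to 35.3 CPM. In brain replicate 1, 15 of 85 cells of the class had 5 or more UMIs of this list, against 2 in brain replicate 2, 1 in subcutaneous replicate 1 and 0 in the other 5 libraries. All 16 markers had UMIs in the class. The 10 keratinocyte markers summed to 39.4 to 62.8 CPM in the class and 25.4 to 48.7 CPM in the other cells, mostly Krt10, with Krt5, Krt1, Krt15 and Dsg3 at 0 in the class. The 8 biliary markers summed to 615 to 885 and 391 to 499 CPM, mostly Krt7, with Krt19, Cftr and Pkhd1 at 0. The 8 hepatocyte markers summed to 4.18 to 10.4 and 3.53 to 66.1 CPM, with Cyp3a11 and Cps1 at 0. The 6 erythroid markers summed to 0.534 to 109 CPM in the class, with a median of 2.64 CPM over libraries and the highest value in a liver library, and to 0.420 to 927 CPM in the other cells. Hbb-bs, a globin gene, led this list. The 12 markers of glia and neurons summed to 195 to 289 CPM in the brain libraries of the class, 62.7 to 72.4 CPM in liver and 84.6 to 91.005 CPM in subcutaneous tumours. eGFP had a UMI in 99.5% of the class in subcutaneous replicate 1 and in 100% in the other 7 libraries.

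Site was not used by the rule. UMIs of the class summed per library were therefore tested for site differences with edgeR's quasi-likelihood method in 10470 genes, with 0.05 as the limit of the adjusted p. For brain against liver 179 genes passed (1.71%), of which 109 were higher in brain (1.04%) and 70 lower (0.669%). For brain against subcutaneous tumours 231 passed (2.21%), with 109 higher in brain (1.04%) and 122 lower (1.17%). For liver against subcutaneous tumours 175 passed (1.67%), with 65 higher in liver (0.621%) and 110 lower (1.05%). In the other tumour cells, which were far more numerous, 1935 genes passed for brain against liver (18.5%; 10.4% higher and 8.04% lower), 1204 for brain against subcutaneous tumours (11.5%; 6.01% higher and 5.49% lower) and 389 for liver against subcutaneous tumours (3.72%; 1.23% higher and 2.48% lower). The counts in the class moved with single libraries. They were lowest for brain against liver without brain replicate 1 (67), brain replicate 2 (78) or liver replicate 2 (71), and for brain against subcutaneous tumours they were 138 and 109 without brain replicate 1 or 2, 142 and 128 without subcutaneous replicate 2 or 3 and 374 without subcutaneous replicate 1. For liver against subcutaneous tumours they were 97 with liver replicate 2 removed, 94 with subcutaneous replicate 3 removed and 294 with liver replicate 3 removed.

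Genes of the response to low oxygen separated subcutaneous tumours from both other sites within the class. Of 16 hypoxia genes tested 15 fell in brain against subcutaneous tumours (median log2 difference -1.79, against 0.0066 for all genes), and 14 fell in liver against subcutaneous tumours (median -1.40). P4ha2, a collagen prolyl hydroxylase, had UMI counts of 0 and 4 in brain, 13, 7 and 5 in liver and 123, 43 and 35 in subcutaneous tumours, or 0 and 1.40 in brain, 3.01, 1.61 and 1.79 in liver and 21.4, 25.8 and 18.7 CPM in subcutaneous tumours. All 3 subcutaneous libraries lay above all 5 others, and the log2 fold change was -3.23 (SE 0.30, adjusted p = 2.44e-06) for liver and -4.35 (SE 0.49, adjusted p = 1.53e-05) for brain against subcutaneous tumours in the edgeR test, the latter resting on 4 UMIs in brain. Egln3, an oxygen-sensing prolyl hydroxylase, had 10.4 and 6.31 in brain, 21.3, 19.6 and 21.1 in liver and 69.1, 65.97 and 53.4 CPM in subcutaneous tumours and log2 fold changes of -2.99 (SE 0.26, adjusted p = 3.18e-07) for brain and -1.55 (SE 0.17, adjusted p = 7.29e-06) for liver against subcutaneous tumours (edgeR). Bhlhe40, a repressor of the clock and hypoxia responses, had 2.59 and 4.56 in brain, 3.70, 2.07 and 3.22 in liver and 20.4, 24.6 and 17.6 CPM in subcutaneous tumours, and the glucose transporter Slc2a1 15.5 and 19.6 in brain, 18.7, 26.5 and 34.004 in liver and 42.98, 55.8 and 63.5 CPM in subcutaneous tumours. Both fell in brain against subcutaneous tumours, by 2.32 and 1.46 on the log2 scale (edgeR adjusted p = 0.000367 and 0.00126).

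The other tumour cells followed the same order for most hypoxia genes: 14 fell in brain and 12 in liver against subcutaneous tumours, with medians of -1.54 and -1.31. The site difference in the class did not pass the test of its difference from that in the other cells for 14 of 16 genes in brain against subcutaneous tumours and for 16 of 16 in liver against subcutaneous tumours. The exceptions were Slc2a1 and Bhlhe40 in brain. Both were read against all other tumour cells, and their values against En1-low cells are not reported here. The cause of these 2 differences was not tested. In the other tumour cells Slc2a1 had 66.1 and 65.1 in brain, 20.97, 23.8 and 29.2 in liver and 45.7, 77.5 and 63.5 CPM in subcutaneous tumours, so that brain was as high as the subcutaneous libraries there, and the difference between the classes in brain against subcutaneous tumours was -1.63 (SE 0.19, adjusted p = 4.77e-06) in log2 (edgeR interaction). For Bhlhe40 it was -1.43 (SE 0.36, adjusted p = 0.0205). In brain against liver Slc2a1 also differed between the classes (-1.83 (SE 0.20, adjusted p = 3.98e-07), edgeR interaction). Between brain and liver, 6 hypoxia genes fell and 1, Ndrg1, rose in the brain cells of the class.

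**Figure D4:**
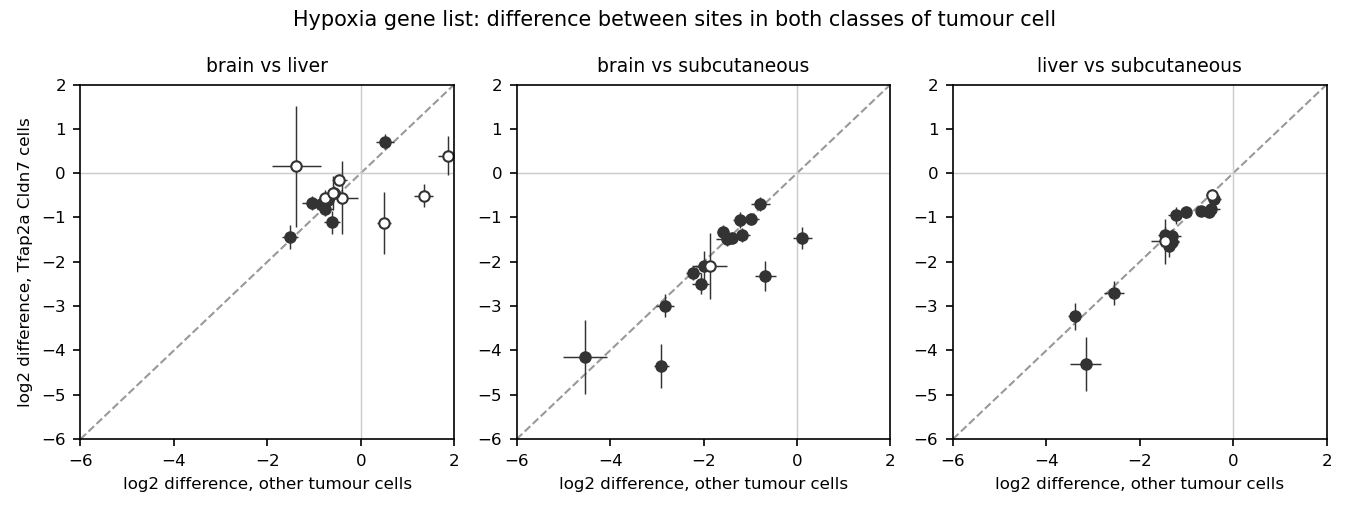
Log2 difference between sites of 16 hypoxia genes in the Tfap2a Cldn7 cells (y axis) against the other tumour cells (x axis), with SE bars. Filled points passed the test in the class (15 in brain vs subcutaneous, 14 in liver vs subcutaneous), and the dashed line marks equal differences, from which Slc2a1 and Bhlhe40 lie farthest below in the middle panel.

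Of the marker genes of the class, Il17b and Espn varied between sites in opposite directions. Il17b rose in brain (1.11 (SE 0.18, adjusted p = 0.000987)) and in liver (0.65 (SE 0.16, adjusted p = 0.0391)) against subcutaneous tumours in the edgeR test, and all 5 brain and liver libraries lay above all 3 subcutaneous libraries. Espn fell in brain (-0.89 (SE 0.14, adjusted p = 0.000613)) and in liver (-0.48 (SE 0.12, adjusted p = 0.0310)) against subcutaneous tumours, again without overlap. In the other tumour cells Il17b had 0.56 and 0.44 and Espn -1.37 and -0.30 in the same contrasts. The difference between the classes passed the edgeR interaction test only for Espn in brain (0.49, adjusted p = 0.0336), where the other cells fell more. Wfdc2 fell in liver against subcutaneous tumours (-0.55 (SE 0.11, adjusted p = 0.00951) in edgeR). The keratins Krt7, Krt8 and Krt18 did not pass the test in any of the 3 contrasts, with log2 differences from -0.28 to 0.25. Elf3 and Klf4, both epithelial factors, fell in brain (Elf3 -1.12 (SE 0.26, adjusted p = 0.0299), Klf4 -1.69 (SE 0.35, adjusted p = 0.00837)) and in liver (Elf3 -1.47 (SE 0.21, adjusted p = 0.000760), Klf4 -1.52 (SE 0.25, adjusted p = 0.00149)) against subcutaneous tumours (edgeR). In the other tumour cells Elf3 had 0.017 and -1.45 and Klf4 -0.86 and -1.54. Of these, only Elf3 in brain passed the edgeR interaction test (-1.13 (SE 0.24, adjusted p = 0.0147)).

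A minority of neuronal and neuroendocrine genes of the class rose in brain, in most comparisons below a larger share than over all genes. Of 21 granule genes tested 0 changed against liver, and 2 rose and 0 fell against subcutaneous tumours. Of 18 neuroendocrine and neuronal regulators 2 rose against liver (Sox2 and Neurog3) and 1 against subcutaneous tumours (Neurog3), and 0 fell. Over all genes 1.04% rose in each of these contrasts. Neurog3, a factor of endocrine progenitors, had 18.98 and 25.3 in brain, 3.70, 5.53 and 5.37 in liver and 3.13, 5.998 and 5.34 CPM in subcutaneous tumours in the class. Both brain libraries lay above the 6 others, and the log2 fold change against liver was 2.23 (SE 0.29, adjusted p = 0.000137) and that against subcutaneous tumours 2.47 (SE 0.31, adjusted p = 4.94e-05) (edgeR). Gap43 rose by 1.56 and 1.11 in log2 against liver and subcutaneous tumours (edgeR adjusted p = 2.93e-06 and 8.48e-05), with 154 and 209.8 in brain, 57.1, 57.8 and 74.5 in liver and 95.2, 83.4 and 87.5 CPM in subcutaneous tumours. In the other tumour cells Gap43 rose by 1.53 and 0.71, and the difference between the classes was 0.019 (SE 0.11, adjusted p = 0.962) and 0.45 (SE 0.11, adjusted p = 0.0140) in the edgeR interaction test. Pcsk1n rose in brain (2.45 (SE 0.32, adjusted p = 7.72e-05)) and liver (1.61 (SE 0.29, adjusted p = 0.00336)) against subcutaneous tumours, and Syt1, a calcium sensor of vesicle release, in brain against subcutaneous tumours (0.93 (SE 0.19, adjusted p = 0.00831), edgeR). In the other tumour cells Pcsk1n had 1.39 and 0.24 in these contrasts and Syt1 had 0.26. For Pcsk1n the edgeR interaction gave 1.04 (adjusted p = 0.161) and 1.43 (adjusted p = 0.118). For Syt1 it gave 0.71 (adjusted p = 0.0125). Of 20 neuronal cytoskeleton genes, 2 rose and 0 fell in brain against liver, and 3 rose and 0 fell against subcutaneous tumours. Stmn2 and Sfrp5 rose in liver against subcutaneous tumours, by 1.47 (SE 0.30, adjusted p = 0.0245) and 1.62 (SE 0.17, adjusted p = 7.29e-06) (edgeR), and Stmn2 missed the threshold without liver replicate 1 or 3.

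Of the further genes named by rule, Sema3c (a secreted guidance cue), Cd164l2, Fbxo2 (a ubiquitin ligase subunit) and Calcr (the calcitonin receptor) fell in brain against liver, with log2 fold changes from -2.27 for Sema3c to -1.88 for Calcr and edgeR adjusted p from 0.000366 to 0.0269. Without 1 library, Sema3c missed the threshold (without brain replicate 1 or 2 or liver replicate 3), as did Fbxo2 (brain replicate 1 or 2 or liver replicate 2). Calcr had 3.45 and 11.2 in brain, 33.5, 32.7 and 28.6 in liver and 14.96, 14.4 and 19.7 CPM in subcutaneous tumours, and it was higher in the class than in the other cells in 8 of 8 libraries (1.75 (SE 0.41) in log2). Selenbp1, a selenium-binding protein, Ak4, a mitochondrial adenylate kinase, and Trib3, a stress pseudokinase, fell in brain against subcutaneous tumours, their values in log2 being -3.22 (SE 0.34, adjusted p = 5.31e-06), -3.10 (SE 0.36, adjusted p = 2.31e-05) and -2.68 (SE 0.31, adjusted p = 5.88e-05) (edgeR). In liver against subcutaneous tumours, Tmprss4, a membrane serine protease, rose by 2.03 (SE 0.24, adjusted p = 2.32e-05), and Cd164l2 and Fbxo2 rose by 1.40 and 1.97 in log2. Selenbp1, Smpdl3b (a sphingomyelinase-like protein) and Klf9 (a glucocorticoid-induced factor) fell in the same contrast, by 3.16, 2.52 and 2.44 in log2. The other tumour cells changed in the same direction for each of these genes. They gave log2 values of -2.23 (Sema3c), -2.90 (Cd164l2), -2.71 (Fbxo2) and -1.19 (Calcr) in brain against liver. In brain against subcutaneous tumours they gave -2.05 (Selenbp1), -2.33 (Ak4) and -2.07 (Trib3). These genes did not pass the edgeR interaction test for a difference between the classes in these contrasts (adjusted p from 0.0769 to 0.989).

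Immune and glial transcripts separated the brain libraries. H2-K1, a class I histocompatibility gene, stood at 48.3 and 35.4 in brain, 3.24, 3.69 and 3.58 in liver and 23.7, 11.995 and 19.7 CPM in subcutaneous tumours and B2m, its partner chain, at 216 and 118 in brain, 44.2, 51.6 and 63.7 in liver and 75.7, 47.4 and 72.03 CPM in subcutaneous tumours. H2-K1 rose in brain, against liver by 3.52 (SE 0.29, adjusted p = 5.33e-07) and against subcutaneous tumours by 1.11 (SE 0.25, adjusted p = 0.0148) in log2 (edgeR), and the 2 brain libraries lay above all others. In the other tumour cells H2-K1 rose by 3.82 and 2.63, and the class minus the other cells gave -0.19 (SE 0.35, adjusted p = 0.825) for the liver contrast, while the subcutaneous one gave -1.23 (SE 0.25, adjusted p = 0.00599) (edgeR interaction). Of 8 interferon genes tested 4 rose in brain against liver (B2m, H2-K1, H2-D1 and Usp18) and 3 against subcutaneous tumours (B2m, H2-K1 and Usp18), where 1.04% of all genes rose in each contrast. In liver against subcutaneous tumours 2 fell, among them H2-K1, against 1.05% of all genes. The interferon list holds 22 genes, and the count filter could be passed through the 2 brain libraries alone. A gene high only there could enter that way and then count as rising, so these shares are a description. Usp18 rose in brain by 4.44 (SE 0.81) against liver and 7.36 (SE 1.21) against subcutaneous tumours in log2, and its UMI counts are not reported here. The complement genes C1qa, C1qb and C1qc also passed the test, but they rested on few cells: C1qa had UMI counts of 66 and 23 in brain, 0, 1 and 0 in liver and 3, 1 and 0 in subcutaneous tumours, and without the cells with 5 or more macrophage UMIs 18 and 13 of these remained in brain. C1qa, C1qb and C1qc each missed the threshold in brain against liver without liver replicate 1 or 3, C1qa also without liver replicate 2 or subcutaneous replicate 2, and C1qc also without brain replicate 1, liver replicate 2 or subcutaneous replicate 1. Against subcutaneous tumours C1qa missed it without any 1 of the 6 liver and subcutaneous libraries, and C1qc without any 1 of the 8 libraries other than brain replicate 2. Ndrg2, expressed by astrocytes, had UMI counts of 36 and 66 in brain, 1, 0 and 2 in liver and 1, 0 and 0 in subcutaneous tumours, where 32 and 65 remained in brain without those cells, and Gfap, the astrocyte filament, 27 and 34 in brain, 0, 0 and 0 in liver and 0, 0 and 0 in subcutaneous tumours. The other tumour cells of brain had 26.6 and 20.1 CPM of Ndrg2 and the class 31.1 and 23.2 CPM. The part of host RNA in these brain differences was not tested.

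Whether sites differed in the class as they did in the other tumour cells was tested with an interaction term over the 16 sums, with the library as a block. The difference between the classes changed in 775 of 10844 genes between brain and liver (7.15%, 401 higher or 3.7% and 374 lower or 3.45%), in 316 between brain and subcutaneous tumours (2.91%, 139 higher or 1.28% and 177 lower or 1.63%) and in 37 between liver and subcutaneous tumours (0.341%, 21 higher or 0.194% and 16 lower or 0.148%). Against En1-low cells the counts were 93, 35 and 36, and 84, 29 and 29 of the first calls were kept. The counts fell in the brain contrasts and stayed near the first count between liver and subcutaneous tumours. The interaction values given above for Espn, Elf3, Gap43, Syt1 and H2-K1 used all other tumour cells. Those against En1-low cells are not reported here. Cells with 2 or more UMIs of the En1 gene set were left out of the comparison cells of all 8 libraries. They made up 26.2% and 32.1% of tumour cells in brain, 1.23% to 2.38% in liver and 2.10% to 9.54% in subcutaneous tumours. The part of each site in the drop was not tested. Leaving out brain replicate 2 gave 163 and 48 genes for the brain contrasts, leaving out brain replicate 1 gave 353 and 136, and leaving out subcutaneous replicate 1 gave 1321, 952 and 82. For liver against subcutaneous tumours, leaving out liver replicate 1 or 2 gave 5 and 6.

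Genes near Mycl showed this in groups. Mycl (ENSMUSG00000028654, chromosome 4, 122995652 to 123002485) is the oncogene that the rule reads, and the class had 5069 and 3969.8 in brain, 5769, 5186 and 5131 in liver and 3559, 4288 and 4198 CPM in subcutaneous tumours of it. Smap2, a GTPase-activating protein of vesicle traffic (ENSMUSG00000032870, chromosome 4, 120968317 to 121017247), stood at 16.4 and 24.6 in brain, 21.7, 22.6 and 21.8 in liver and 18.4, 22.8 and 24.5 CPM in subcutaneous tumours in the class, with one brain library below and the other just above the range of the 6 others. In the other tumour cells Smap2 stood at 117 and 124 in brain, 23.3, 19.96 and 21.7 in liver and 50.6, 32.03 and 28.9 CPM in subcutaneous tumours, with both brain libraries above all 6 others. The difference between the classes in brain against liver was -2.42 (SE 0.29, adjusted p = 0.000372) in log2 (edgeR), and -1.33 (adjusted p = 9.74e-05) against En1-low cells. The zinc finger gene Rlf and the growth signalling GTPase Rragc gave the same picture: Rlf had 13.8 and 18.9 CPM in the class in brain and 125 and 115 CPM in the other cells, and Rragc 70.7 and 69.1 against 290.5 and 282 CPM.

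Of 38 tested genes that start within 3 Mb of Mycl on GRCm38, a window chosen after these values were seen, 20 (52.6%) had a lower difference between the classes in brain against liver and 0 had a higher one, against 3.45% lower over all genes. In brain against subcutaneous tumours 14 (36.8%) were lower and 0 higher, against 1.63%. With En1-low cells as the comparison 11 and 10 of the 38 were lower, where 93 and 35 of all genes were called in either direction. Ctps and Nfyc were among these 10 but not among the 14. In the class itself, the median log2 difference of the window was -0.093 when brain was set against liver and -0.089 when it was set against subcutaneous tumours, while in the other tumour cells it was 0.60 and 0.49. Of 36 window genes tested between sites, 21 exceeded 0.5 in log2 in brain against liver in the other cells and 1 in the class. Genes within 0.3 Mb of Mycl did not follow this: Trit1, 0.021 Mb away, had log2 differences in brain against liver of -0.93 in the class and -1.38 in the other cells. DNA copy number was not measured here.

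**Figure D5:**
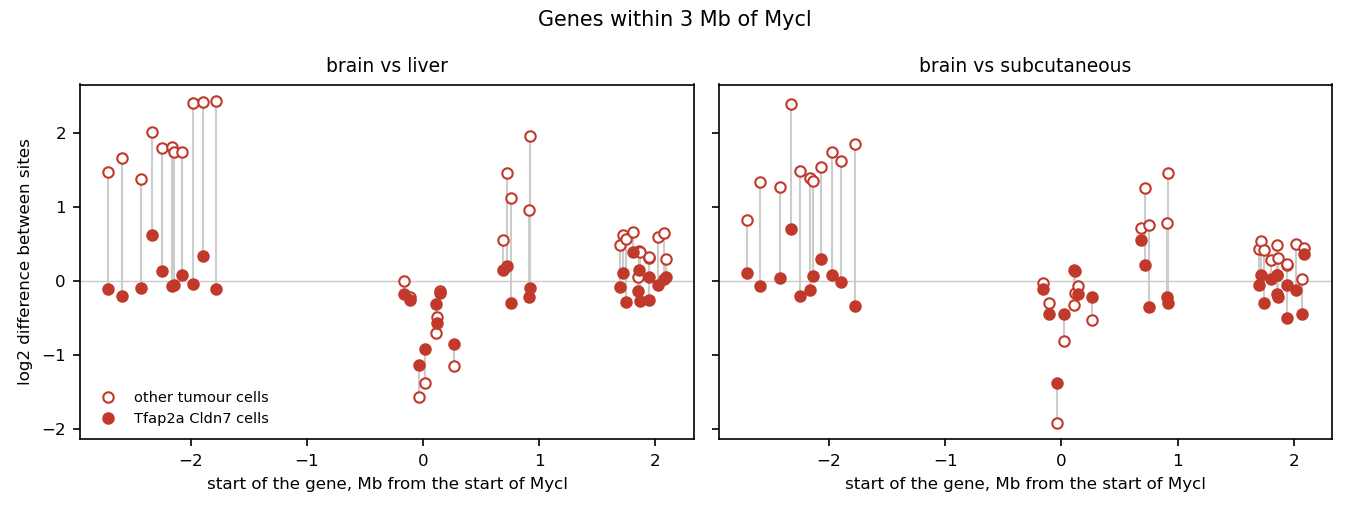
Log2 difference of brain against liver (left) and against subcutaneous tumours (right) for 36 genes within 3 Mb of Mycl, by the distance of their start from that of Mycl (x axis, Mb), in Tfap2a Cldn7 cells (filled) and the other tumour cells (open), joined within a gene. Over all 36 genes the class has medians of -0.093 and -0.089 and the other cells of 0.60 and 0.49. In the class Cited4 reaches 0.61 and 0.70, and Mfsd2a, close to Mycl, lies at -1.14 and -1.38.

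Other genes whose difference between the classes varied with site included epithelial and neuronal ones. Cdh1 had a difference of 1.35 (SE 0.20, adjusted p = 4.00e-05) in brain against liver, where the change in the class did not pass the test (log2 -0.29, adjusted p = 0.584) and the other cells fell (-1.62 (SE 0.19, adjusted p = 0.00126), edgeR), and 0.91 (adjusted p = 0.0110) against En1-low cells. Krt8 had 0.99 (SE 0.087, adjusted p = 1.03e-07) and Espn 0.70 (SE 0.13, adjusted p = 0.000906) in the same contrast. For Krt8 and Espn the values against En1-low cells are not reported here, and 84 of the 775 calls of this contrast were kept against those cells. Neurog3, which rose in the class in brain, had 1.57 (SE 0.34, adjusted p = 0.00340), and 1.17 (adjusted p = 0.0966) against En1-low cells, and it missed the threshold without brain replicate 2 or liver replicate 2. Gpm6b, a membrane glycoprotein, had UMI counts of 36 and 35 in brain, 11, 8 and 7 in liver and 5, 4 and 1 in subcutaneous tumours in the class. Without the cells with 5 or more macrophage UMIs, 21 and 34 of its UMIs remained in brain. Its difference was 2.58 (SE 0.43, adjusted p = 0.000432) in brain against subcutaneous tumours, and the part of host RNA in it was not tested. In liver against subcutaneous tumours the serotonergic factor Fev had 1.000 (SE 0.15, adjusted p = 0.00107), with 26.7 and 23.5 in brain, 54.6, 40.1 and 42.95 in liver and 10.6, 28.2 and 25.1 CPM in subcutaneous tumours. Fev in the other tumour cells stood at 80.4 and 81.7 in brain, 105, 103 and 97.6 in liver and 62.1, 102 and 105 CPM in subcutaneous tumours.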

How the data were processed

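Single-cell libraries of 8 allografts were analysed from filtered matrices of UMI counts that the authors deposited per library. The counts were made with Cell Ranger and STAR on build mm10, per the submitters' processing notes, and the matrices carry Cell Ranger format 3.0.0, per the file headers. They are raw counts per gene and cell, not normalized. Quality limits were 500 genes as the minimum and 10% mitochondrial UMIs as the maximum. No doublet caller was run, and no batch or date is given in the labels. Replicate numbers came from the sample titles.

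Counts were summed per library and class and fitted with edgeR 4.0.16 (TMM scaling, quasi-likelihood test, Benjamini-Hochberg adjustment) in R 4.3.3 with limma 3.58.1. The fits of both classes together kept genes with at least 3.54 CPM in 2 sums of a class. The site contrasts used edgeR's own count filter on the sums of the class, and the other tumour cells were tested on the same genes. Genes left out of the site tests held 0.269% of the UMIs of the class. Class differences and interactions were fitted with the library as a block, site contrasts in the class over all 3 sites without a block. DESeq2 1.42.0 was an alternative. Shares were compared by exact permutation in Python 3.11.15 with scipy 1.17.1 and numpy 2.4.6. Other alternatives were other scaling and count filters, other gates and comparison cells, non-cycling cells, and leaving out each library. The fits were tested on simulated data. The members and the gene lists were chosen with earlier results of these data known.

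Genes were named by rule: for the classes, the 14 with the largest fold change in each direction among genes of at least 20 CPM and 1 direction in all 8 libraries, and for site and interaction contrasts, the 5 with the largest change in each direction among those past the threshold whose libraries did not overlap. Members of the gene lists were named where their list is described, and others were chosen after their values were seen. Positions are from GENCODE M21 (GRCm38), which matched 21952 of 22056 genes by identifier (99.5%). Some genes of the lists and rules are not reported here.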

Additional observations from a re-analysis of the deposited data

Results flagged for a closer look

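The difference between Tfap2a Cldn7 cells and the other tumour cells itself varied with site, by the edgeR interaction test, in 775 genes for brain against liver, 316 for brain against subcutaneous tumours and 37 for liver against subcutaneous tumours. The values below are log2 differences of the class minus the other cells, between the sites, for the genes with the largest change.

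In brain against liver, Gpm6b (1.65), the potassium channel gene Kcnh3 (1.64), Neurog3 (1.57), Prom2 (1.4) and Cdh1 (1.35) had a higher difference. The calcium channel gene Cacna1c (-2.73), Smap2 (-2.42), the prohormone convertase gene Pcsk1 (-2.26), Zmpste24 (-2.1) and Rragc (-2.03) had a lower one. Cacna1c and Pcsk1 missed the threshold without any 1 of the brain or liver libraries, Zmpste24 without either brain library, Gpm6b without brain replicate 1, Prom2 without brain replicate 2, and Neurog3 without brain replicate 2 or liver replicate 2. Against En1-low tumour cells, Cacna1c (-2.08, adjusted p = 0.196), Pcsk1 (-1.29, adjusted p = 0.0796) and Neurog3 (1.17, adjusted p = 0.0966) missed the threshold in edgeR. Smap2 (-1.33), Zmpste24 (-0.93) and Rragc (-0.95) passed it with smaller values.

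In brain against subcutaneous tumours, Ndrg2 (3.63), Gpm6b (2.58), Camk2n1 (1.49), Akap12 (1.14) and Chn1 (1.14) had a higher difference, and the macrophage genes Lyz2 (-3.41), Fcer1g (-2.12) and Ctss (-1.88) and the genes Klf9 (-2.08) and Rlf (-2.0) a lower one. Ndrg2 rests on 1 UMI in the subcutaneous cells of the class and missed the threshold without any 1 subcutaneous library. Lyz2 had 426 UMIs in the class in subcutaneous replicate 1, and 26 without the 1 cell that had 5 or more macrophage UMIs. Fcer1g and Ctss also missed the threshold without subcutaneous replicate 1, Ctss without brain replicate 1, Akap12 and Chn1 without either brain library, Chn1 without subcutaneous replicate 3, and Klf9 without brain replicate 2. Against En1-low cells, Ndrg2 (3.34, edgeR adjusted p = 0.224), Akap12 (1.02, adjusted p = 0.100) and Chn1 (0.81, adjusted p = 0.351) missed the threshold, and Rlf was -1.40 and passed it.

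In liver against subcutaneous tumours, Fev (1.0), Egr1 (0.96), Ttc9b (0.72), Foxj3 (0.65) and Hspb8 (0.64) had a higher difference, and Lyz2 (-5.19), Mapk13 (-0.71), Nudt13 (-0.65), Kcnh3 (-0.65) and Ctsb (-0.59) a lower one. All of these except Fev and Mapk13 missed the threshold when 1 library was left out. Against En1-low cells, Foxj3 (0.31, edgeR adjusted p = 0.562), Ttc9b (0.64, adjusted p = 0.0728) and Hspb8 (0.59, adjusted p = 0.0523) also missed it.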

How the results depend on the processing

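The site difference of the thinned share (brain minus the mean of the others, -0.056 percentage points) had the opposite sign among En1-low tumour cells (0.215, exact permutation p = 0.907) and ranged from -0.195 to 0.159 with 1 library left out. That of the G2/M share (-1.45) was 0.804 without thinning and 4.34 with 2 or more UMIs of each gene, and -2.71 to -0.193 with 1 library left out. Counts of genes are given for brain against liver, brain against subcutaneous and liver against subcutaneous tumours in that order. Within the class they were 458, 526 and 410 with no filter on low counts, and 44, 50 and 53 with 2 or more UMIs of each gene. In non-cycling cells brain against liver gave 104. With 1 library left out they were 67 to 268, 109 to 374 and 94 to 294. For the interaction they were 93 and 35 (brain contrasts) against En1-low cells, and 246, 86 and 10 with 2 or more UMIs of each gene. DESeq2 gave 484 (brain against liver) and 10 (liver against subcutaneous), UMI-matched cells 481 and 17, and non-cycling cells 492 and 11 for the same pair. Without a low-count filter brain and liver against subcutaneous tumours gave 563 and 132, and without the 5% deepest cells 197 and 9. With 1 library left out the interaction counts were 163 to 1321, 48 to 952 and 5 to 82. The class differed from the other cells in 1346 genes with no filter, 524 with 2 or more UMIs of each gene and 866 to 1003 with 1 library left out. The cause was not tested for any of these.

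Same-numbered libraries of different sites correlated at -0.0071 to 0.22 (7 pairs) and others at -0.23 to 0.079 (14 pairs), and not every library correlated best with its own number, so the numbers were not taken to pair the libraries. With the replicate number as a block the class gave 416, 464 and 538 genes between sites, and the share gave p = 0.917 in the blocked exact permutation test. Without the library as a block the interaction gave 46, 7 and 0 genes, and this count of 0 in edgeR compares with 1019 genes at an unadjusted p under 0.05 in the fit with the block and 10 by DESeq2.

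An alternative chosen after seeing the data left out cells with 5 or more macrophage UMIs and gave 24 genes for liver against subcutaneous tumours. There Lyz2 turned to 0.40 and 0.94 (brain and liver against subcutaneous) and Ctss to 1.95. Without subcutaneous replicate 1, Lyz2 was 4.09 and 2.32, Fcer1g 4.07 and Ctss 4.09, and without the 5% deepest cells 0.80, 1.97 and 3.49 in brain against subcutaneous tumours. With 1 library left out Lyz2 ranged from -3.61 to 4.09 and from -9.61 to 2.32, Fcer1g from -2.58 to 4.07 and Ctss from -1.95 to 4.09. None of these reversed values passed the threshold. The 85 cells of brain replicate 1 set the depth limit in brain.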
